A study of Arabidopsis thaliana with 4 samples.

Results

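The genes described here are those whose signal was more than 2-fold higher in P. indica-exposed than in mock-treated Arabidopsis roots after 2 d of co-cultivation, but not more than 2-fold higher after 6 d. Of 22746 probe sets on the ATH1 array, each a set of short probes designed to read a transcript or a few similar ones, 61 met this rule. The rule leaves out UDP-glycosyltransferases (1 probe set) and a list of 11 loci (9 probe sets), which left 51 probe sets. Of these, 21 pair with 1 gene and its locus code. The other 30 have no gene, no locus code or several genes in the probe annotation used here, and are counted but not named. The exclusion could be applied only to probe sets with 1 gene, so a UDP-glycosyltransferase or a listed locus among these 30 would not have been recognised. The members were chosen on the signals given below, so their ratios at both time points are a description and no test was made of them.

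Roots recognize a microbe through molecules it releases or exposes, such as fragments of chitin, the polymer of fungal cell walls. Recognition is known to switch on genes for proteins that are secreted into the cell wall, for example peroxidases, protease inhibitors and lectins, and for enzymes and regulators of defense. P. indica is an endophyte that lives in roots with benefit to the plant, and the study asked how the root responds before hyphae touch it and after contact.

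All 4 groups were roots of Arabidopsis thaliana wild type, ecotype Columbia-0, from seedlings on nylon membrane over PNM medium. P. indica-exposed seedlings had a plug of fungal mycelium of 5 mm diameter placed 3 cm from the nearest root, for 2 d or 6 d. Mock-treated seedlings had a plug of the same medium and size without hyphae, for the same times. By the labels, seedlings of the 2 d arrays were 12 d old and those of the 6 d arrays 16 d old, while the treatment text puts 12 d at the start of co-cultivation. Each group is 1 array, so there are no replicates, no difference carries an error or a p-value, and the number of arrays limits the precision. The paper speaks of 3 independent experiments, and the sources used here do not say whether RNA was pooled for the arrays. The labels name root as the tissue but describe RNA isolation from roots and shoots, and their free text speaks of embryos, which matches no other label.

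The arrays of the time points differed in ways that touch every comparison between 2 d and 6 d. The 18 probe sets of hybridization controls, added in fixed amounts, were all brighter at 6 d. Their median log2 difference was 0.59 in the exposed pair of arrays and 0.54 in the mock pair. At 2 d they differed by 0.07 between exposed and mock-treated roots, and at 6 d by 0.10. Actin signal at the 3' end over that at the 5' end, a measure that increases when RNA is degraded or copied incompletely, was 4.45 on the exposed and 3.69 on the mock array at 6 d, and 1.58 and 1.77 on the exposed and mock arrays at 2 d. The same measure for GAPDH differed less between the time points. It was 1.19 on the exposed and 1.12 on the mock array at 6 d, and 0.992 and 0.999 on the exposed and mock arrays at 2 d. The 25S rRNA probe set had 1129 and 1116 on the exposed and mock arrays at 6 d, and 28.6 and 78.1 on the exposed and mock arrays at 2 d. Their part in the results was not tested. PYK10 (AT3G09260), an abundant beta-glucosidase of roots, had 3542 in exposed and 3098 in mock-treated roots at 2 d, and 4468 and 3864 in exposed and mock-treated roots at 6 d. Of 12 listed genes of green shoot tissue 3 have a named probe set, all for proteins of photosynthesis. RCA had 152 in exposed and 201 in mock-treated roots at 2 d, and 297 in exposed and 199 in mock-treated roots at 6 d. LHCB4.1 had 125 in exposed and 179 in mock-treated roots at 2 d, and 352 in exposed and 259.8 in mock-treated roots at 6 d. PRK had 16.3 in exposed and 22.3 in mock-treated roots at 2 d, and 90.5 in exposed and 51.2 in mock-treated roots at 6 d. All 3 were brighter in exposed than in mock-treated roots at 6 d, and LHCB4.1 and PRK were also brighter at 6 d than at 2 d in mock-treated roots, by 0.54 and 1.199 on the log2 scale. The part of shoot tissue in the results was not tested. Of 8 root hair genes 2 have one, the expansins EXPA7 and EXPA18, with log2 ratios of 0.47 and 0.50 at 2 d and 0.12 and -0.21 at 6 d. The listed genes of endodermis, xylem and phloem have no named probe set, so those cell types were not checked.

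Signals below a floor of 22.198, the mean of the arrays' 40th percentiles on the log2 scale, were set to the floor before ratios were formed, and a ratio with 1 array below it is a lower bound, written as "at least". At 2 d 0.737% of the 14118 probe sets above the floor were more than 2-fold higher in exposed roots and 0.283% were more than 2-fold lower, and the rule as a whole took 0.432%. Among the 51 members the log2 ratio at 2 d ran from 1.00 to 2.72 with a median of 1.22, where all probe sets above the floor had a median of -0.03. At 6 d their median was 0.45, from -0.55 to 0.97, where all these probe sets had a median of -0.01. At 6 d 43 of the 51 had the higher signal in exposed roots, where 46.8% of all probe sets above the floor did, and 16 were more than 1.5-fold higher, where 2.27% were. The rule used these ratios, so nothing is read from the shares. The other 35 were within 1.5-fold in either direction at 6 d. At 2 d 8 members passed 3-fold, against 0.29% of all probe sets.

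**Figure D1:**
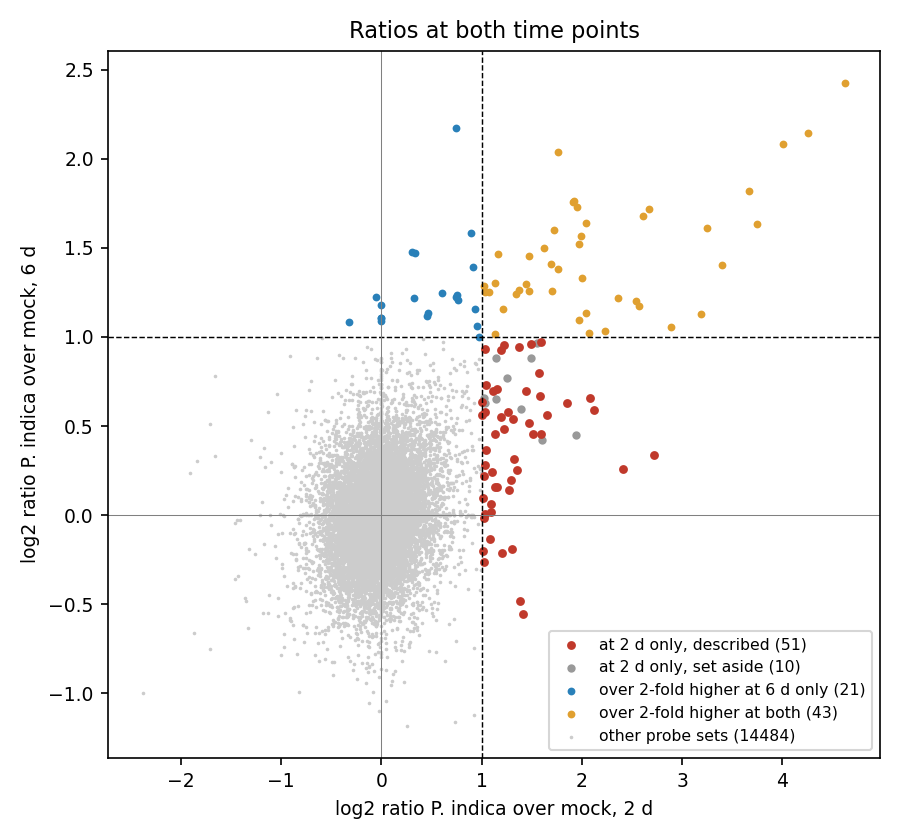
Log2 ratio of P. indica-exposed over mock-treated roots at 2 d (horizontal) and at 6 d (vertical), where each point is a probe set above the floor in at least 1 pair of arrays and the dashed lines mark 2-fold. The 51 members (red) lie right of the 2 d line and below the 6 d line, 43 of them above 0 at 6 d, next to 10 probe sets set aside (grey), 43 that were more than 2-fold higher at both time points and 21 at 6 d only.

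Some members lie close to the limits, so single genes there could fall on either side. At 2 d the members with the smallest ratios were the protease inhibitor gene AT2G38870 and 2 probe sets without a gene name, all at 2.01-fold. Just outside were AT4G32950 with 2.00-fold (a log2 ratio of 0.999), AT4G08410 with 1.99-fold and cwINV6 (AT5G11920) with 1.98-fold. At 6 d the members with the largest ratios were 3 probe sets without a gene name at 1.96-fold, 1.94-fold and 1.94-fold. Just outside at 6 d were AT2G18690 with 2.03-fold and 2 probe sets without a gene name with 2.03-fold and 2.04-fold.

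Several members code for enzymes and proteins of the cell wall and the space outside the plasma membrane. AT1G18980, a germin-like gene whose family makes glycoproteins of the cell wall, had a signal of 614 in exposed and 268 in mock-treated roots at 2 d, a 2.29-fold difference. At 6 d it had 581 in exposed and 396 in mock-treated roots, a 1.47-fold difference, so the exposed signal was close to that at 2 d and the mock signal was higher. AT5G06730, a class III peroxidase gene whose product uses H2O2 in the wall, had 47.8 in exposed and 20.2 in mock-treated roots at 2 d, at least 2.15-fold higher, and 41.1 in exposed and 34.8 in mock-treated roots at 6 d, 1.18-fold higher. Its mock signal at 2 d was below the floor and all of its signals were low. AT3G51350, an aspartyl protease gene, had 104.9 in exposed and 43.7 in mock-treated roots at 2 d and 86.0 in exposed and 57.6 in mock-treated roots at 6 d, so it was 2.40-fold and 1.49-fold higher. The smaller ratio at 6 d came with both a lower exposed and a higher mock signal.

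AT2G38870 belongs to the potato inhibitor I family, small proteins that block serine proteases of microbes and insects. It had a signal of 1462 in exposed and 729 in mock-treated roots at 2 d, and 1379 in exposed and 889 in mock-treated roots at 6 d. The differences of 2.01-fold and 1.55-fold were among the smaller ones at 2 d and among the larger ones at 6 d. AT3G16530 codes for a protein with a legume lectin domain, a fold that binds sugars. It had 78.8 in exposed and 35.3 in mock-treated roots at 2 d, 2.23-fold higher, and 59.9 in exposed and 53.7 in mock-treated roots at 6 d, 1.12-fold higher. AT5G41280, from the cysteine-rich family of secreted proteins related to receptor-like kinases, had 56.8 in exposed and 16.5 in mock-treated roots at 2 d, at least 2.56-fold higher, and 36.2 in exposed and 30.4 in mock-treated roots at 6 d, 1.19-fold higher.

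The members include 2 genes of the lipid transfer protein family, small secreted or membrane-anchored proteins that bind lipids, and they differed in how the ratio became small. AT2G37870 had 61.1 in exposed and 25 in mock-treated roots at 2 d, 2.44-fold higher, and 28.1 in exposed and 24.5 in mock-treated roots at 6 d, 1.15-fold higher. Here the mock signals of the time points were nearly the same and the exposed signal was 2.17-fold lower at 6 d. Both mock signals and the exposed signal at 6 d lay close to the floor of 22.198, so their likeness says little. AT4G22640 had 114 in exposed and 51.9 in mock-treated roots at 2 d, 2.20-fold higher, and 148 in exposed and 132 in mock-treated roots at 6 d, 1.12-fold higher. In this gene the mock signal was 2.55-fold higher at 6 d than at 2 d, while the exposed signal was also higher at 6 d. AT1G30990, from a superfamily of small proteins with a pocket for hydrophobic ligands, had 127 in exposed and 63.2 in mock-treated roots at 2 d, 2.02-fold higher, and 97.9 in exposed and 91.5 in mock-treated roots at 6 d, 1.07-fold higher.

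Another set of members codes for proteins of membranes, transport and Ca2+ binding. AT3G48940 is a remorin gene, whose family makes plant-specific proteins of plasma membrane domains. It had 58.1 in exposed and 23.5 in mock-treated roots at 2 d, 2.47-fold higher. Exposed roots had the lower signal after 6 d, 48.8 against 55.7 in mock-treated roots, a 1.14-fold difference. AT1G29020, a gene for a protein with EF-hands, the Ca2+-binding loops of calmodulin-like proteins, had 99.3 in exposed and 48.0 in mock-treated roots at 2 d, 2.07-fold higher, and 94.4 in exposed and 73.3 in mock-treated roots at 6 d, 1.29-fold higher. AT3G20460, a gene of the sugar transporter family, had 89.3 in exposed and 41.8 in mock-treated roots at 2 d, 2.14-fold higher, and 67.5 in exposed and 64.5 in mock-treated roots at 6 d, 1.05-fold higher. Both had mock signals at 6 d more than 1.5-fold above those at 2 d. AT3G07600 codes for a protein with a heavy-metal-associated domain, and was among the 3 named genes past 3-fold at 2 d. It had a signal of 105.7 in exposed and 35.1 in mock-treated roots at 2 d, 3.01-fold higher, and 106.9 in exposed and 78.1 in mock-treated roots at 6 d, 1.37-fold higher. AT3G23190, related to a gene family whose expression causes lesions like those of the hypersensitive response, had 394 in exposed and 193 in mock-treated roots at 2 d, 2.04-fold higher, and 256 in exposed and 210.3 in mock-treated roots at 6 d, 1.22-fold higher.

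HEMA2 (AT1G09940) codes for glutamyl-tRNA reductase, the enzyme of the committed step of tetrapyrrole synthesis that leads to heme and chlorophyll. It had a signal of 88.2 in exposed and 42.7 in mock-treated roots at 2 d, 2.07-fold higher, and 65.8 in exposed and 39.6 in mock-treated roots at 6 d, 1.66-fold higher, the largest 6 d ratio of the 21 named genes. The mock signals of the time points differed little, and the exposed signal was the lower one at 6 d. AT5G36270 is annotated as a transcribed pseudogene and resembles genes of dehydroascorbate reductase, an enzyme that regenerates vitamin C. It had 62.5 in exposed and 29.2 in mock-treated roots at 2 d, 2.14-fold higher, and 35.8 in exposed and 35.4 in mock-treated roots at 6 d, 1.01-fold higher. Whether its probes also read its functional relatives was not tested.

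For 5 named members no function is given here. AT1G19960 had the largest ratio of all members, with 146 in exposed and 15.3 in mock-treated roots at 2 d, at least 6.58-fold higher, and 141 in exposed and 111 in mock-treated roots at 6 d, 1.26-fold higher. The exposed signal was nearly the same at the time points, and the mock signal was at least 5.02-fold higher at 6 d than at 2 d. AT2G25510 had 86.4 in exposed and 24.0 in mock-treated roots at 2 d, 3.60-fold higher, and 62.6 in exposed and 40.5 in mock-treated roots at 6 d, 1.55-fold higher. AT4G04990 had 84.4 in exposed and 34.0 in mock-treated roots at 2 d, 2.48-fold higher, and 136 in exposed and 93.6 in mock-treated roots at 6 d, 1.46-fold higher. Its exposed signal at 6 d was 1.61-fold that at 2 d, so the smaller ratio came with a higher signal in both conditions. AT3G12540 had 93.0 in exposed and 45.4 in mock-treated roots at 2 d, 2.05-fold higher, and 63.9 in exposed and 63.5 in mock-treated roots at 6 d, 1.01-fold higher. AT5G14330 had 58.1 in exposed and 14.5 in mock-treated roots at 2 d, at least 2.62-fold higher, and 19.4 in exposed and 31.0 in mock-treated roots at 6 d, at least 1.40-fold lower. It was the named member with the lowest 6 d ratio, and 1 array of each of its pairs lay below the floor.

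**Figure D2:**
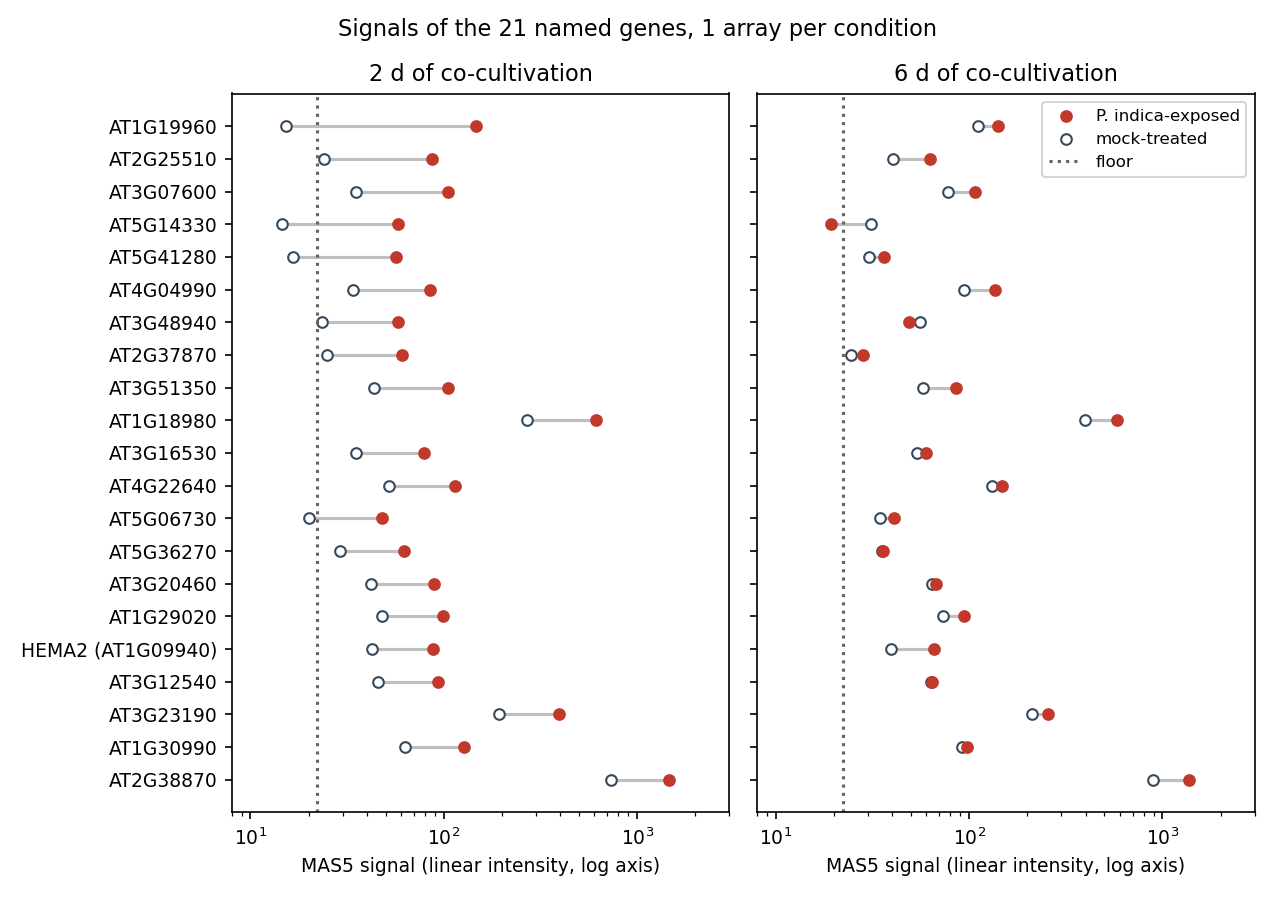
MAS5 signal (log axis) of the 21 named genes in P. indica-exposed roots (filled) and mock-treated roots (open) at 2 d (left) and 6 d (right), 1 array per condition, with the floor as a dotted line. All pairs are wide apart at 2 d, as the rule requires, and at 6 d 19 of 21 genes had the higher signal in exposed roots, with AT5G14330 and AT3G48940 turned.

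The 30 members without a gene name covered a similar range. Their 2 d ratios ran from 2.01-fold to 5.33-fold with a median of 2.38-fold, and their 6 d log2 ratios from -0.55 to 0.97 with a median of 0.56. At 6 d 13 of the 30 were more than 1.5-fold higher, where 3 of the 21 named genes were. The one with the largest 2 d ratio had 179.5 in exposed and 33.7 in mock-treated roots at 2 d, 5.33-fold higher, and 172 in exposed and 143 in mock-treated roots at 6 d, 1.197-fold higher. This is the pattern of AT1G19960, with an exposed signal that stayed within 1.5-fold between the time points and a higher mock signal at 6 d. The one with the lowest 6 d ratio of all members had 226 in exposed and 85.1 in mock-treated roots at 2 d, 2.66-fold higher, and 101 in exposed and 148 in mock-treated roots at 6 d, 1.47-fold lower. Of the 51 members 3 carry a suffix for possible cross-hybridization, and none of these has a gene name.

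The ratio at 6 d can be smaller because the exposed signal was lower or because the mock signal was higher than at 2 d, and the members differed in this. In mock-treated roots 48 of 51 members had the higher signal at 6 d, and the median difference between 6 d and 2 d was 0.61 on the log2 scale. In exposed roots 37 of 51 had the lower signal at 6 d, with a median of -0.26. Over all 14609 probe sets above the floor on any array both medians were 0. In 34 members the mock difference was the larger one in size. At a limit of 1.5-fold, chosen after the values were seen, 24 members had a higher mock signal at 6 d without a lower exposed signal, 12 had a lower exposed signal without a higher mock signal, 3 had both and 12 neither. Counted with those that had both, 27 members had the higher mock signal, where 6.73% of all probe sets did, and 15 the lower exposed signal, where 9.93% did. AT1G19960, AT3G07600, AT3G48940, AT4G04990 and AT4G22640 were the named genes whose mock signal was more than 2-fold higher at 6 d. AT2G37870 and AT5G14330 were those whose exposed signal was more than 2-fold lower at 6 d. In total, 12 of 51 members had a mock signal more than 2-fold higher at 6 d, against 1.12% of all probe sets above the floor. An exposed signal more than 2-fold lower was found in 6, against 2.77%. These differences use the same 4 signals as the rule, which favours a low mock and a high exposed signal at 2 d, so nothing is read from these shares. The hybridization controls were brighter at 6 d in both conditions, by 0.59 in exposed and by 0.54 in mock-treated roots. Their part in these differences was not tested.

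**Figure D3:**
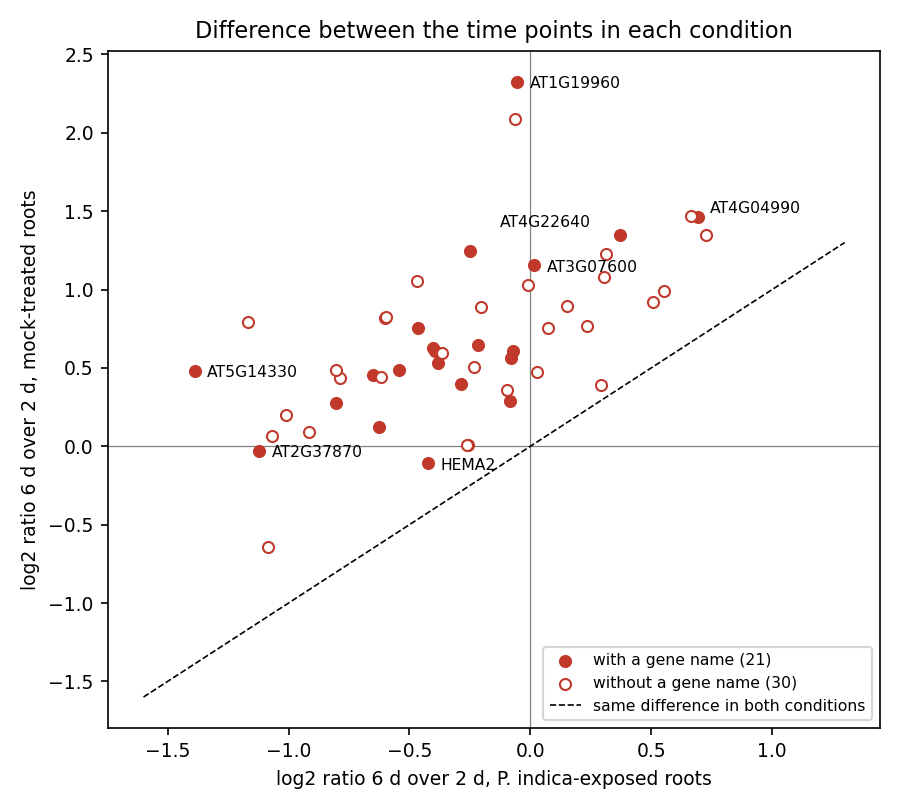
Log2 ratio of 6 d over 2 d in P. indica-exposed roots (horizontal) and in mock-treated roots (vertical) for the 51 members, filled where a gene is named. Points above the dashed line have a smaller exposed-over-mock ratio at 6 d than at 2 d, which the rule requires, and 48 of 51 points lie above 0 on the mock axis, with AT1G19960 at 2.33.

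Compared with the 43 probe sets that were more than 2-fold higher at both time points, the members had smaller ratios at 2 d as well, with a median log2 ratio of 1.22 against 1.97. Their median mock difference between 6 d and 2 d was 0.61 against 0.48 in that group, and their median exposed difference -0.26 against 0.02. With 1 array per condition, and with both groups cut from the same ratios, no test of these differences could be made.

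The probe sets that differed more than 2-fold in either direction at 2 d were counted by the signal of the brighter array. Of 3735 probe sets between 50 and 100, 40 were higher in exposed roots, 21 of them members, and 16 were lower. Of 3084 between 100 and 200, 24 were higher, 15 of them members, and 11 were lower. Of 3807 above 200, 34 were higher, 11 of them members, and 8 were lower. At the dim end, of 598 between 44.4 and 50, 6 were higher, 4 of them members, and 5 were lower. AT5G06730, with 47.8 in exposed roots, lies in this dimmest range, while AT1G18980, AT3G23190 and AT2G38870 lie in the brightest. The higher counts include the members, the probe sets set aside and those higher at both time points. The rule used these ratios, so nothing is read from the counts.

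**Figure D4:**
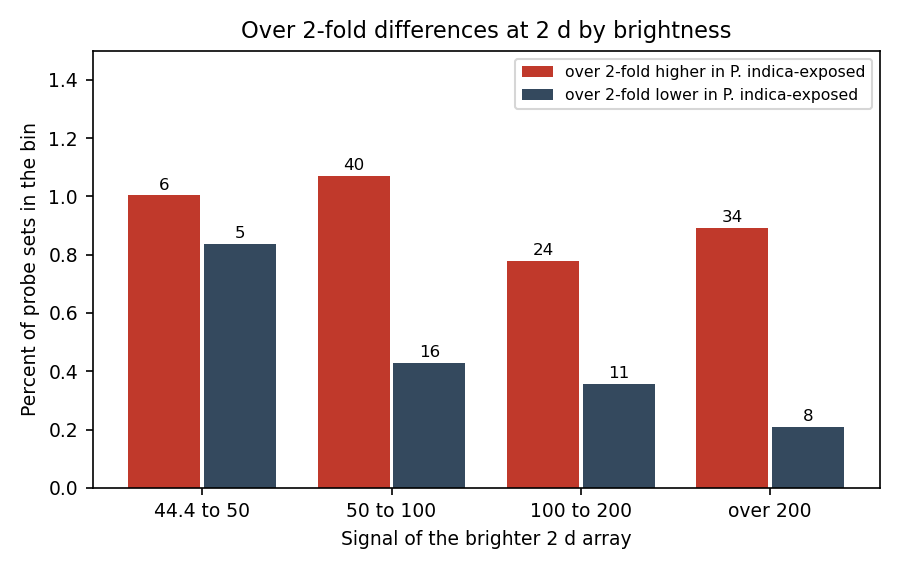
Percent of probe sets more than 2-fold higher (red) or lower (dark) in P. indica-exposed than in mock-treated roots at 2 d, by the signal of the brighter array, with the number of probe sets above each bar. In the dimmest bin the bars are nearly level, with 6 higher, 4 of them members, and 5 lower. They are furthest apart above 200, with 34 higher, 11 of them members, and 8 lower. The rule used these ratios, so nothing is read from the bars.

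The named members are spread over the 5 nuclear chromosomes, with 5, 3, 7, 2 and 4 genes on chromosomes 1 to 5. Among the 3 genes on either side of each named member, 50 have a named probe set. Of these, 30 genes, next to 19 members, lay above the floor at 2 d. Their median log2 ratio at 2 d was 0.05, and 1 of the 30 was more than 2-fold higher. This gene is YLS5 (AT2G38860), the direct neighbour of the protease inhibitor gene AT2G38870 and one of the loci the rule sets aside. YLS5 had 433 in exposed and 212 in mock-treated roots at 2 d, 2.05-fold higher, and 631 in exposed and 408 in mock-treated roots at 6 d, 1.54-fold higher, next to 2.01-fold and 1.55-fold for AT2G38870. Of the aspartyl protease gene AT3G51350, the neighbours AT3G51330, AT3G51360 and AT3G51370 had log2 ratios of 0.48, at least 0.42 and 0.57 at 2 d, and 0.14, -0.06 and 0.22 at 6 d.

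To place the members among known pathways, 9 lists of genes of pattern-triggered immunity, salicylic acid, jasmonic acid, abscisic acid, ethylene, auxin, indole compounds, detoxification and touch or Ca2+ were set beside them. Of 137 listed genes 17 have a named probe set, so the lists cover these pathways thinly. The 23 genes of tryptophan, indole glucosinolate and camalexin synthesis have none. In the annotation used here 8759 of 22746 probe sets have no gene or no locus and 503 have several genes. The array may therefore still read the other listed genes. The paper, with the same array type and a 3-fold limit, reports PAD3 of camalexin synthesis as up-regulated at 2 d. None of the 17 named genes is among the members. Whether any other listed gene is among the 30 members without a gene name is not known. Of 11 listed genes above the floor at 2 d none was more than 2-fold higher, where 0.737% of all probe sets above the floor were, and 1 was more than 2-fold lower. Of 12 above the floor at 6 d none was past 2-fold in either direction. Of all probe sets above the floor at 6 d, 0.456% were more than 2-fold higher and 0.0428% more than 2-fold lower. The lower gene at 2 d was CML38 (AT1G76650), a calmodulin-like Ca2+ sensor, with 20.6 in exposed and 45.5 in mock-treated roots, a log2 ratio of at most -1.04, and at 6 d it had 35.5 in exposed and 21.6 in mock-treated roots, a log2 ratio of at least 0.68. Its relatives CML42 and CML43 had log2 ratios of 0.43 and 0.60 at 2 d and of 0.00 and 0.16 at 6 d. WRKY53, a transcription factor of early immunity, had 45.3 in exposed and 27.3 in mock-treated roots at 2 d, a log2 ratio of 0.73, and the kinase gene BIK1, which acts behind immune receptors, had 159.5 in exposed and 175.5 in mock-treated roots, a log2 ratio of -0.14. The auxin-conjugating enzyme gene WES1 (AT4G27260) had 96.4 in exposed and 96.2 in mock-treated roots at 2 d. GH3.3 of the same list had 27.4 in exposed and 15.2 in mock-treated roots at 2 d. At 6 d GH3.3 had 27.3 in exposed and 10.5 in mock-treated roots. Its log2 ratio was at least 0.30 at both time points, with all signals low. GH3.1 and IAA29 lay below the floor on all 4 arrays. EIN3, the transcription factor of ethylene signalling, had log2 ratios of -0.12 and -0.06 at 2 d and 6 d, and the glutathione transferase gene GSTU25 of 0.21 and 0.11. The markers of the jasmonic acid response PDF1.2 and THI2.1 lay below the floor on all 4 arrays. For the 4 reference genes with a named probe set, the median log2 ratio was 0.08 (2 d) and 0.04 (6 d). In mock-treated roots their log2 ratios of 6 d over 2 d were 0.23 (GAPC2), 0.05 (AT4G34270), 0.14 (PEX4) and -0.55 (AT2G28390). In exposed roots these were 0.29, 0.06, -0.04 and -0.77 in the same order.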

How the data were processed

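Total RNA of 4 root samples was hybridized by the authors to Affymetrix ATH1 arrays, and the deposited values are linear intensities (MAS5 signals per the labels and the submitters' processing notes, version not given) for 22810 probe sets. A 2% trimmed mean of 100.0 on each array shows that the deposited intensities had been scaled. The genome build and the handling of replicates are not given in the sources used here. From these values 64 control probe sets were left out, signals below the floor of 22.198 were set to it, and log2 ratios were formed within each time point. With 1 array per condition no test was made. Simulated arrays were used only to check that the selection was computed as written. They raised bright probe sets by more than most members differed here, so they do not show how well the rule works on these signals. The members and lists were chosen with earlier results of these data known. Every member with 1 gene was named. Further genes named are those next to the limits, neighbours and up to 4 genes of a list. Genes come from the platform annotation, updated to TAIR10.1 through Entrez Gene (13484 probe sets, 13333 genes), and no coordinates are given. No sequence tables were given, so promoter motifs were not analysed here. Alternatives were a floor at the 20th or the 60th percentile or none, 32 added to each signal, quantile and loess (span 0.3) normalization, centring, probe sets without suffix and a 3-fold limit. A value was taken as moved where it differed by over 1.5-fold. Python 3.11.15, numpy 2.4.6, pandas 2.3.3, statsmodels 0.14.6 and matplotlib 3.10.9 were used.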

Additional observations from a re-analysis of the deposited data

Results flagged for a closer look

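A few members had the higher signal in exposed roots at 2 d and in mock-treated roots at 6 d, so that the difference between exposed and mock-treated roots ran in opposite directions at the time points. This held for 8 of the 51 members, and the difference between the time points was not tested, since each condition is 1 array. The named ones are AT5G14330, with a log2 ratio of -0.48 at 6 d, and the remorin gene AT3G48940, with -0.19. The lowest of all 51 was a probe set without a gene name, with -0.55. All 3 log2 ratios are of exposed over mock-treated roots, and that of AT5G14330 is a bound because its exposed signal at 6 d lay below the floor.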

How the results depend on the processing

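The number of probe sets that met the rule depended on how low signals were treated. In place of 61, a floor at the 20th percentile gave 236, one at the 60th percentile 30 and no floor 984, and the number was 37 with 32 added to every signal and 27 with a limit of 3-fold. Of the 51 members, 20 met the rule with the floor at the 60th percentile, 15 with 32 added and 8 with the 3-fold limit, and all 51 with the 20th percentile or without a floor. Quantile normalization, loess and centring gave 70, 71 and 70, with 50, 50 and 51 of the members, and 58 probe sets carry no cross-hybridization suffix. The median log2 ratio of the members at 2 d lay between 0.77 and 1.27 under these floors, the added 32 and the normalizations, and that at 6 d between 0.10 and 0.48. The median mock difference between 6 d and 2 d lay between 0.09 and 0.75 and the median exposed difference between -0.27 and -0.05, the smallest sizes with the floor at the 60th percentile. With that floor 5 of the 21 named genes were more than 2-fold higher at 2 d, and 5 lay at the floor with both signals (AT5G14330, AT5G41280, AT3G48940, AT2G37870 and AT5G06730). A count of the listed pathway genes, added after the data were seen, gave 0 genes more than 2-fold higher at 2 d under each floor, the added 32 and each normalization. Only 11 of them lay above the main floor at 2 d, where 0.737% of all probe sets above the floor passed, so this count could hardly move. The number of arrays and signals near background limit every value. No paired analysis was possible because each condition is 1 array.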
